A study of Homo sapiens with 6 samples.

Results

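The nuclear-encoded subunits of the mitochondrial respiratory chain were examined in HepG2 cells after knockdown of KIF11. Members were all genes of the deposited count table whose symbol begins with NDUFA, NDUFB, NDUFC, NDUFS, NDUFV, UQCR, COX4 to COX8 or ATP5, together with SDHA, SDHB, SDHC, SDHD and CYC1, and without the NDUFAF assembly factors and NDUFA4L2. This rule used only names, and it took 91 of the 20030 genes in the table. By complex these were 38 genes of complex I, 4 of complex II, 10 of complex III, 18 of complex IV and 21 of the ATP synthase. NDUFA4, whose product is now counted with cytochrome c oxidase, was placed in complex IV. HepG2 is an established human hepatoma line. Cells that carried a control short hairpin RNA (sh-ctrl, 3 libraries) were compared with cells that carried a hairpin against KIF11 (sh-KIF11, 3 libraries), both delivered by lentivirus, and polyadenylated RNA was sequenced. KIF11 is a kinesin motor that pushes the spindle poles apart in mitosis. The labels give no other treatment, time or batch, a single line was used, and nothing says that the libraries came from separate cultures, so p-values measure the spread between these libraries, which may be technical.

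The respiratory chain is built into the inner mitochondrial membrane. Complex I takes electrons from NADH and complex II takes them from succinate, and both hand them to ubiquinone. Complex III passes them on to cytochrome c, complex IV passes them from cytochrome c to oxygen, and the ATP synthase uses the proton gradient that complexes I, III and IV build up. Except for complex II, each complex joins a few subunits encoded by mitochondrial DNA to a larger number encoded in the nucleus, and the nuclear ones are the genes counted here. Liver cells rely on this chain for much of their ATP. The mitochondrially encoded subunits were not analysed here.

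Promoters of these genes are often described as carrying sites for NRF1, for the ETS factor GABPA and for YY1, so 3 motifs were searched on both strands, namely GCGCATGCG (NRF1 core), CCGGAAG (ETS family) and AAGATGGC (YY1). RefSeq promoter windows (GRCh38.p14, from 250 bases before to 50 bases after the start) were found for 72 of the 91 members. The NRF1 core was present in 10 of them (13.9%, against 2.78% of the 15638 genes of the table with a window), the ETS motif in 20 (27.8% against 14.4%) and the YY1 motif in 11 (15.3% against 3.95%). Over all 27305 windows of the reference the shares were 2.1%, 10.7% and 3.03%. The ETS and YY1 motifs can overlap by the letters AAG and the YY1 motif and NRF1 core by GC, and a match describes letters only. The 120 bases before the start are shown, 5′ to 3′ in the direction of transcription, for members with the largest falls in their complexes among those with a window (UQCRQ and UQCRC1 of complex III, NDUFS7 of complex I, COX6B1 of complex IV, ATP5ME of the ATP synthase, since ATP5F1D had none) and for ATP5PF, which held all 3 motifs. Capitals mark a motif on either strand. The windows lie at chr5:132866522-132866641 on the plus strand, chr3:48609647-48609766 on the minus strand, chr19:1383787-1383906 on the plus strand, chr19:35648203-35648322 on the plus strand, chr4:674277-674396 on the minus strand and chr21:25735055-25735174 on the minus strand.
UQCRQ: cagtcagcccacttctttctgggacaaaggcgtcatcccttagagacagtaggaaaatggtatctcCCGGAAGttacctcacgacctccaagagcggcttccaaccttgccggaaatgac
UQCRC1: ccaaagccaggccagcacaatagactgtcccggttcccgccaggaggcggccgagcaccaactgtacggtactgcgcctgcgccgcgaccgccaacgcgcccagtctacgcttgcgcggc
NDUFS7: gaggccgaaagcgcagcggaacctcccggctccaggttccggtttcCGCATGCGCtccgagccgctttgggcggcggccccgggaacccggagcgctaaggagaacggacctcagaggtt
COX6B1: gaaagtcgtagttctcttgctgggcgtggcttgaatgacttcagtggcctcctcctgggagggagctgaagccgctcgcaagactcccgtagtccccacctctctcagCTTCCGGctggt
ATP5ME: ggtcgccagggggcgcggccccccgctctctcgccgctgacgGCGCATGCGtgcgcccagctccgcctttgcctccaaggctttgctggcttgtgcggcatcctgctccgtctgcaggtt
ATP5PF: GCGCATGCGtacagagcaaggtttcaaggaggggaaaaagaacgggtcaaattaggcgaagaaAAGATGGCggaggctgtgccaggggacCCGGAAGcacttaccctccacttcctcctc

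The capitals of UQCRQ and COX6B1 are the ETS motif, those of NDUFS7 and ATP5ME are the NRF1 core, and ATP5PF holds the NRF1 core, then YY1, then ETS. The window of UQCRC1 shows no motif in these 120 bases. Motifs after the start are not shown but were counted, namely YY1 in UQCRC1 and NDUFS7 and ETS in ATP5ME. Among tested members with a window, 34 held at least 1 motif and 33 of these were lower in sh-KIF11 (34.7% of all tested genes were lower and 34.4% higher), with a median log2 fold change of -0.49. The other 33 held none, and 30 of them were lower and 1 was higher, with a median of -0.46. The medians with and without these letters lay close together, and no test was made of them.

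KIF11 itself was measured first. Its normalised level, in CPM (counts scaled to the library size by TMM), was 111, 116 and 121 in the control libraries against 72.1, 71.4 and 62.8 after knockdown, or 0.594 of control (log2 fold change -0.75 ± 0.06 SE, adjusted p = 4.22e-15). The 6 libraries held between 18167773 and 19583282 counts, so a count of 0 allows up to 0.145 to 0.178 CPM (3 counts), and these limits cover counting error only. A total of 12369 genes were tested. With TMM scaling 34.4% of them were higher and 34.7% lower in sh-KIF11 at an adjusted p under 0.05, and their median log2 fold change was 0.0043. The hepatic identity of the cells was visible in ALB, APOB and SERPINA1, with mean sh-ctrl levels of 8361, 9118 and 5884 CPM, and 7 of 8 hepatocyte and hepatoma markers fell (median -1.36). The marker that was not called, TTR, had only 26.1 CPM in sh-ctrl (-0.13, adjusted p = 0.229). The 7 markers that fell moved in the same direction as the subunits described next, and their part in those values was not tested. Of the markers of other cells, PTPRC, CD3E, HBB, CDH5 and KDR had between 0 and 3 counts in each library, while LYZ (2612 against 511 CPM), CD68 (82.3 against 44.2 CPM) and PDGFRB (3.17 against 1.42 CPM) fell, VWF (1.58 against 3.17 CPM) rose and PECAM1 was not called (-0.08).

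The nuclear-encoded subunits fell together after KIF11 knockdown. Of the 82 members with enough counts to be tested, 74 were lower in sh-KIF11 against 34.7% of all tested genes, and 3 were higher against 34.4%. The middle value of their log2 fold changes was -0.47 (median), the quartiles were -0.61 and -0.28, and values had a range from -0.96 to 0.54, while all tested genes had quartiles of -0.31 and 0.36. For 73 members every sh-KIF11 library lay below every sh-ctrl library, against 35.8% of all tested genes, and for 3 every sh-KIF11 library lay above, against 35.4%. The falls were moderate, since 24 members were at least 1.5-fold lower (10.7% of all tested genes were) and none was 1.5-fold higher (15% were). The 9 members that could not be tested were COX4I2, COX6A2, COX6B2, COX7A1, COX7B2, COX8C, ATP5MGL and the readthrough genes ATP5MF-PTCD1 and NDUFC2-KCTD14, each with 0 to 5 counts in each library. In these bulk libraries fewer cells of one kind and less RNA per cell cannot be told apart.

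**Figure D1:**
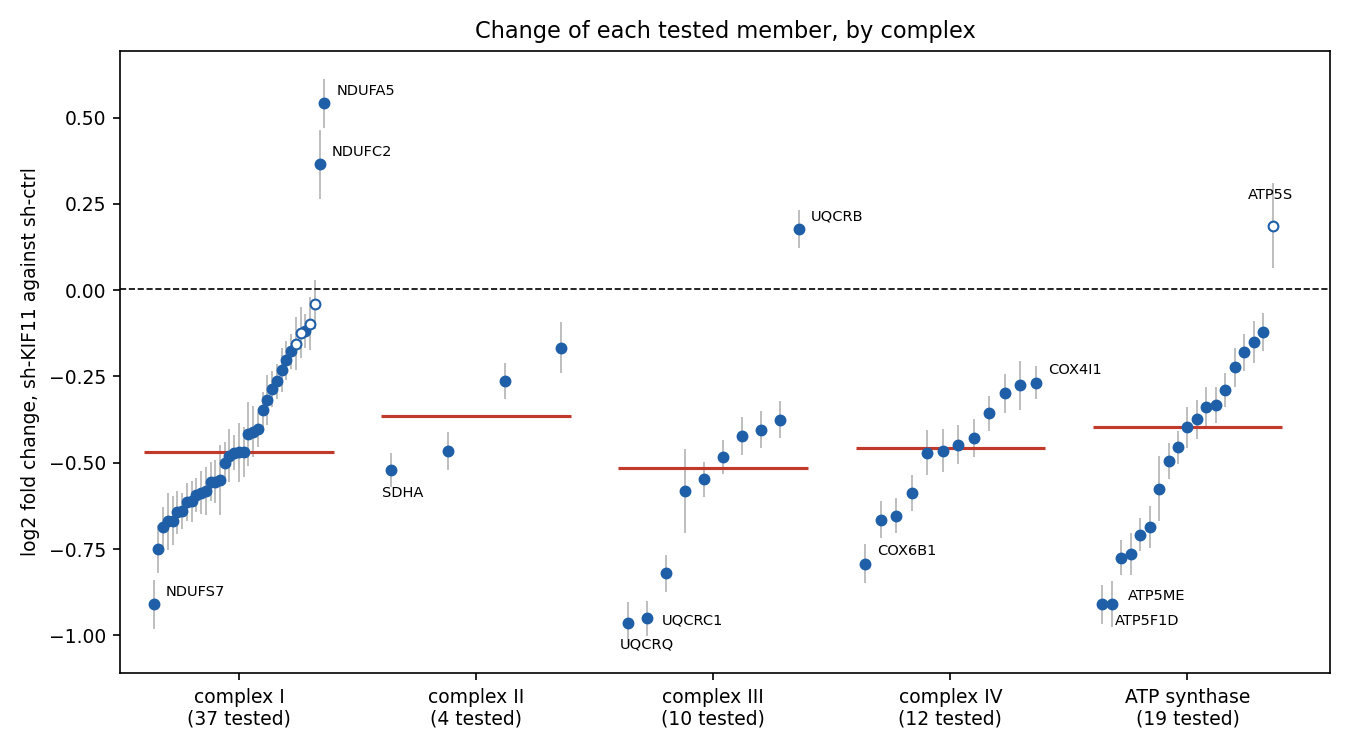
Log2 fold change in sh-KIF11 against sh-ctrl (y axis) of the 82 tested members, ordered within each complex (x axis). Points are genes with their standard error, filled where the adjusted p was under 0.05, red lines are the median of each complex and the dashed line is the median of all tested genes. Nearly all points lie below the dashed line, and NDUFA5, NDUFC2, UQCRB and ATP5S lie above it.

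The direction was shared by all 5 complexes. Complex III had the lowest median (-0.52, 9 of 10 genes lower), followed by complex I (-0.47, 31 of 37 lower), complex IV (-0.46, 12 of 12 lower), the ATP synthase (-0.40, 18 of 19 lower) and complex II (-0.36, 4 of 4 lower). These medians lie close together beside the spread over the genes of a complex, whose SD ran from 0.17 to 0.33, and no difference between complexes was tested. Summed over all 91 members, normalised levels were 10667 ± 282 CPM in sh-ctrl and 7737 ± 60.6 CPM in sh-KIF11 (SD, n = 3), a ratio of 0.725. The summed ratio was 0.686 for complex III, 0.711 for the ATP synthase, 0.723 for complex IV, 0.752 for complex II and 0.762 for complex I. Summed FPKM gave smaller falls, with a ratio of 0.835 for all members. By complex the FPKM ratio was 0.755 for complex III, 0.816 for complex IV, 0.847 for the ATP synthase, 0.855 for complex I and 0.875 for complex II. As a share of all counts, without TMM scaling, the members took 0.967%, 0.975% and 1.01% of the sh-ctrl libraries and 0.843%, 0.836% and 0.835% of the sh-KIF11 libraries. The 3 shares in sh-KIF11 were nearly equal and all lay below the lowest control.

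**Figure D2:**
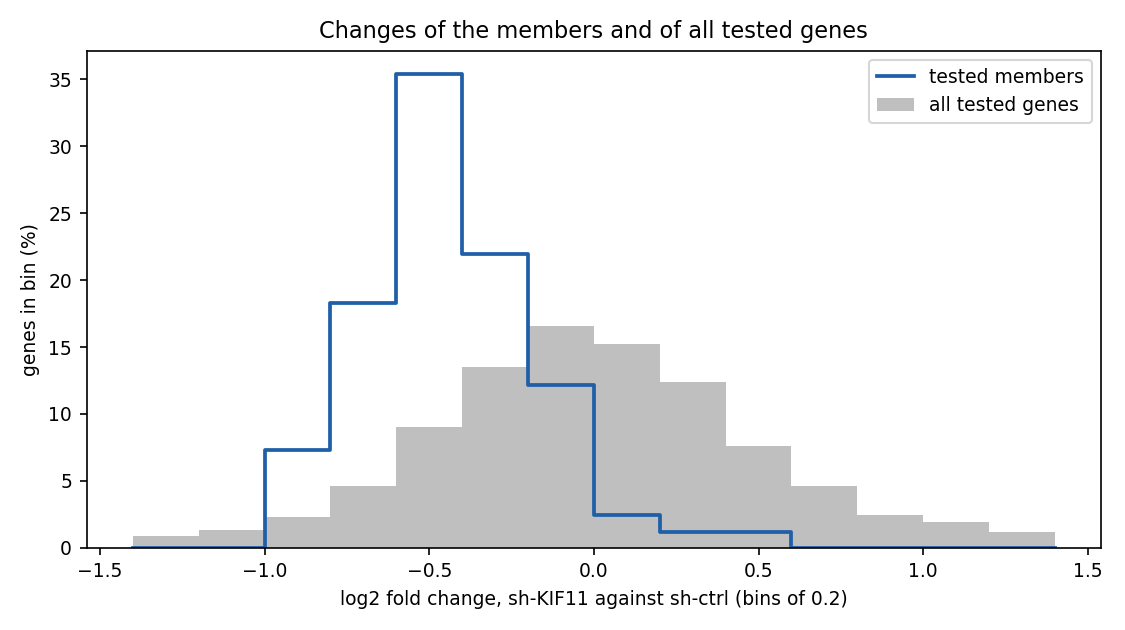
Share of genes (y axis, percent) in bins of 0.2 of the log2 fold change in sh-KIF11 against sh-ctrl (x axis), with all 12369 tested genes as grey bars and the 82 tested members as the blue line. The axis covers 93.6% of all tested genes and every tested member. The members are centred near -0.47 and all tested genes near 0.

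Complex I is the entry point for electrons from NADH. In the peripheral arm, which holds the flavin and the iron-sulfur clusters, 13 of 16 genes fell and 1 rose (median -0.39), and in the membrane arm 17 of 20 fell and 1 rose (median -0.47). The core subunits named here all fell. The largest fall was that of NDUFS7, the subunit with the last iron-sulfur cluster before ubiquinone, which was 59.1, 59.1 and 55.5 CPM in sh-ctrl and 30.9, 28.5 and 33.0 CPM in sh-KIF11. Every knockdown library was far below every control, at 0.532 of the control mean (log2 fold change -0.91 ± 0.07, adjusted p = 8.03e-15). NDUFS8, which carries further iron-sulfur clusters, fell by 0.64 on the log2 scale, NDUFV1, the subunit that binds NADH and flavin, fell by 0.64, and NDUFS3 fell by 0.59. NDUFV2 fell by 0.26 and NDUFS1 fell by 0.20, so the core subunits of 1 complex differed in how far they fell. NDUFS1, which carries several iron-sulfur clusters, was 191, 191 and 226 CPM in sh-ctrl and 180, 180 and 167 CPM in sh-KIF11. Its groups were separated by a small gap, and with library totals as the only scaling its value was 0.03. Without sh-ctrl replicate 3, its highest library, it was -0.12 (adjusted p = 0.0125).

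Among the accessory subunits of complex I, NDUFA1, a small protein of the membrane arm, fell from 55.1, 60.0 and 63.5 CPM to 37.5, 34.7 and 34.0 CPM (log2 fold change -0.75 ± 0.07, adjusted p = 1.49e-12). NDUFB10, also of the membrane arm, fell from 91.9, 89.3 and 84.8 CPM to 53.5, 55.2 and 56.7 CPM (-0.69 ± 0.06, adjusted p = 7.29e-14). In both genes the libraries of a group lay close together beside the gap between the groups. NDUFAB1, the mitochondrial acyl carrier protein that sits in both arms, fell by 0.59. Among the rest, NDUFA2, NDUFA3, NDUFA9, NDUFA11, NDUFB4, NDUFB7, NDUFB11, NDUFC1 and NDUFS6 fell by 0.50 to 0.67, NDUFA7, NDUFA8, NDUFB1, NDUFB2, NDUFB6, NDUFB8 and NDUFB9 by 0.40 to 0.48, and NDUFA6, NDUFA12, NDUFA13 and NDUFS5 by 0.18 to 0.35. NDUFA10 had the smallest called fall, from 135 ± 1.07 to 124 ± 0.689 CPM (SD, n = 3, -0.12, adjusted p = 0.0321), and its adjusted p was 0.0661 to 0.0811 when any library but sh-ctrl replicate 3 was left out, with values of -0.11 to -0.12. NDUFB5, NDUFV3, NDUFS4 and NDUFB3 were not called, with log2 fold changes of -0.15, -0.12, -0.10 and -0.04 and adjusted p between 0.0705 and 0.623. Without sh-ctrl replicate 1 NDUFB5 was -0.25 (adjusted p = 0.00339).

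Complex II, succinate dehydrogenase, is also an enzyme of the citrate cycle and has no mitochondrially encoded subunit. SDHA, the flavoprotein that oxidises succinate, was 251, 262 and 249 CPM in sh-ctrl and 185, 174 and 172 CPM in sh-KIF11 (-0.52 ± 0.05, adjusted p = 2.85e-12). SDHB, the iron-sulfur subunit, was 130, 134 and 153 CPM in sh-ctrl and 98.7, 103 and 99.8 CPM in sh-KIF11 (-0.47 ± 0.06, adjusted p = 1.09e-09). Both catalytic subunits were lower in every knockdown library. The membrane anchors moved less. SDHC fell from 118, 124 and 126 CPM to 106, 101 and 99.7 CPM (-0.26 ± 0.05, adjusted p = 2.59e-05), and SDHD was 52.7, 49.1 and 64.1 CPM in sh-ctrl against 50.3, 50.8 and 46.5 CPM in sh-KIF11 (-0.17 ± 0.07, adjusted p = 0.0429). The SDHD libraries of the groups overlapped. Without sh-ctrl replicate 3 the SDHD value was -0.05 (adjusted p = 0.486) and without sh-KIF11 replicate 3 it was -0.13 (adjusted p = 0.176), so its call rested on single libraries.

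Complex III held the members with the largest falls of all. UQCRQ, a small subunit next to cytochrome b, was 86.6, 81.5 and 86.2 CPM in sh-ctrl and 45.9, 44.4 and 39.9 CPM in sh-KIF11, which is 0.512 of control (-0.96 ± 0.06, adjusted p = 2.28e-17). UQCRC1, core protein 1 of the matrix side, was 314, 313 and 289 CPM in sh-ctrl and 164, 157 and 153 CPM in sh-KIF11, which is 0.518 of control (-0.95 ± 0.05, adjusted p = 3.21e-20). CYC1, cytochrome c1, which gives electrons to cytochrome c, was 184, 177 and 173 CPM in sh-ctrl and 102, 92.5 and 108 CPM in sh-KIF11 (-0.82 ± 0.05, adjusted p = 4.1e-17). In these 3 genes the groups were far apart and no library stood between them. UQCRC2, core protein 2, and UQCRH, the hinge protein, fell by 0.48 and 0.55. UQCRFS1, the Rieske iron-sulfur protein, fell by 0.40, and the small subunits UQCR10 and UQCR11 by 0.38 and 0.42. UQCRHL, a retrocopy nearly identical to UQCRH, was also lower (-0.58), but reads of the copies cannot be assigned with certainty. UQCRQ lies at chr5:132866560-132868031 on the plus strand and its exons overlap those of GDF9 on the other strand. UQCRC1 lies at chr3:48599002-48610976 on the minus strand (GENCODE 29, GRCh38), with no exon shared with another gene.

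**Figure D3:**
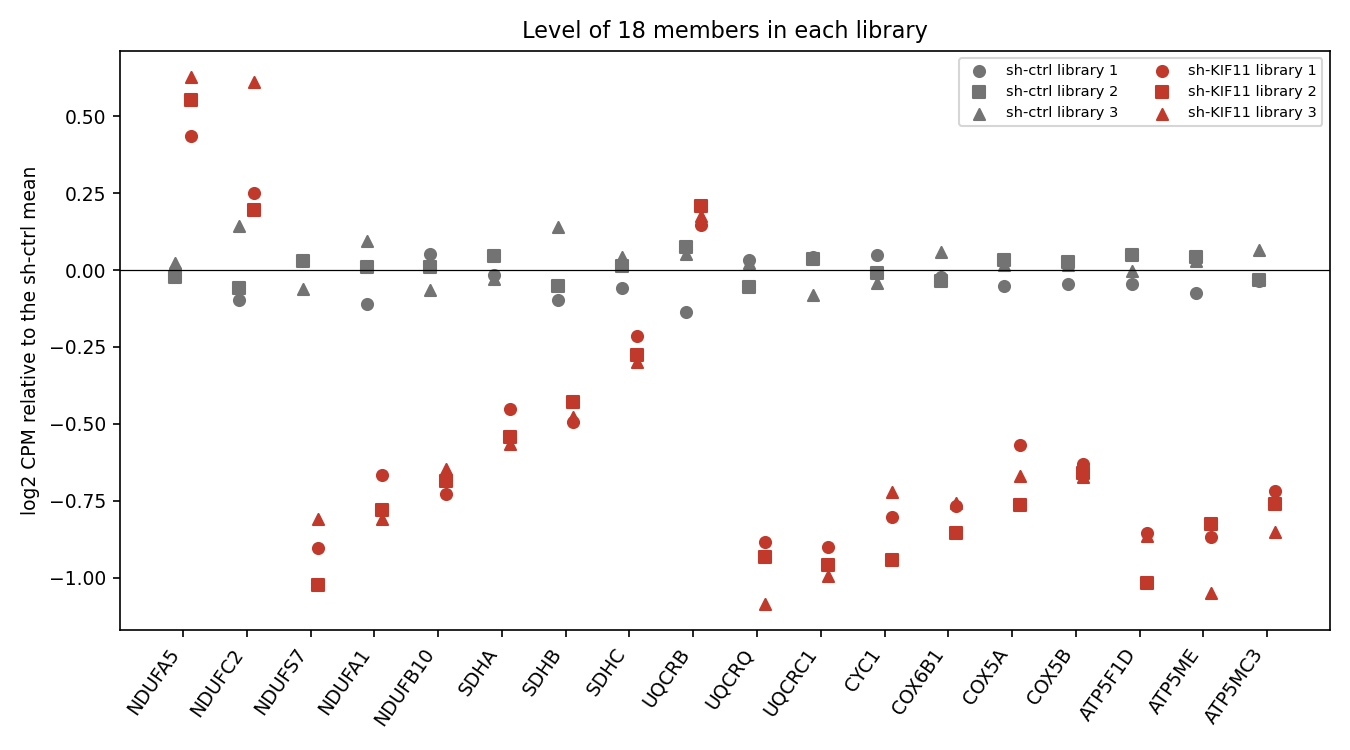
Level of 18 members in each library (y axis, log2 of CPM relative to the sh-ctrl mean) for the genes on the x axis, grey for sh-ctrl and red for sh-KIF11, with 1 symbol for each replicate number. The genes are those with the largest called changes of each complex in each direction. Red points lie below grey ones in 15 genes and above them in NDUFA5, NDUFC2 and UQCRB.

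All tested genes of complex IV, cytochrome c oxidase, fell. COX6B1, which faces the intermembrane space, was 107, 106 and 113 CPM in sh-ctrl and 64.0, 60.2 and 64.4 CPM in sh-KIF11 (-0.79 ± 0.06, adjusted p = 2.72e-16). COX5A was 135, 143 and 141 CPM in sh-ctrl and 94.3, 82.3 and 87.8 CPM in sh-KIF11 (-0.66 ± 0.05, adjusted p = 3.2e-14), and COX5B was 154, 162 and 161 CPM against 103, 101 and 99.8 CPM (-0.65 ± 0.05, adjusted p = 6.26e-15). The replicates of each group differed by far less than the groups did. COX4I1, COX7B and COX6C were the subunits with the smallest falls, by 0.27, 0.28 and 0.30, and COX7B fell by 0.16 without sh-ctrl replicate 3 (adjusted p = 0.0167). COX6A1, NDUFA4, COX7C, COX7A2 and COX8A lay between, with falls of 0.43 to 0.59. COX7A2L, a factor that joins complexes III and IV into supercomplexes and is no subunit of the free enzyme, fell by 0.36.

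Several subunits of complex IV have a second gene that is used mainly in muscle, lung or testis. The forms usual in liver were well expressed, with COX4I1 at 228 ± 3.41, COX6A1 at 139 ± 10.1, COX7A2 at 58.1 ± 1.35 and COX8A at 135 ± 5.60 CPM in sh-ctrl (SD, n = 3). The tissue-restricted forms COX6A2, COX7A1 and COX8C had no count in any library, and COX4I2 had 1 count in 1 control library. COX6B2 had 1, 1 and 0 counts and COX7B2 had 4, 2 and 1 counts in sh-KIF11, and both had 0 in every sh-ctrl library. These counts are at the detection limit. A shift from the common to the tissue-restricted isoforms was therefore not detectable at this depth.

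In the ATP synthase, all 5 genes of the catalytic F1 part fell (median -0.46), as did all 3 genes of the c ring (median -0.76), the 5 other membrane subunits (median -0.57) and the 4 genes of the peripheral stalk (median -0.36). ATP5F1B, the catalytic beta subunit, was 907, 884 and 895 CPM in sh-ctrl and 561, 541 and 543 CPM in sh-KIF11 (-0.71 ± 0.05, adjusted p = 4.22e-17). Its partner ATP5F1A, the alpha subunit, fell by 0.46, from 694 ± 28.1 to 506 ± 11.2 CPM (SD, n = 3). ATP5F1D, the delta subunit of the central stalk, was 112, 120 and 116 CPM in sh-ctrl and 64.3, 57.4 and 63.8 CPM in sh-KIF11 (-0.91 ± 0.06, adjusted p = 5.58e-18). ATP5F1E, the epsilon subunit of that stalk, fell by 0.18, and by 0.11 without sh-ctrl replicate 3 (adjusted p = 0.0204). The direction of ATP5F1E depended on the setting. Its value was 0.05 with library totals alone (adjusted p = 0.396) and 0.06 with limma on log2(FPKM + 0.1) (adjusted p = 0.383). With an offset for the length implied by count and FPKM it was 0.30 (adjusted p = 1.66e-06). With offsets for annotated length and for GC content it was -0.21 and -0.43. ATP5ME, the e subunit of the dimer interface, was 70.3, 76.3 and 75.7 CPM against 40.7, 41.8 and 35.8 CPM (-0.91 ± 0.07, adjusted p = 9.67e-16). In ATP5F1B, ATP5F1D and ATP5ME no control library came near a knockdown library, whereas the lowest control and highest knockdown library of ATP5F1E were 241 and 237 CPM. ATP5IF1, which inhibits ATP hydrolysis by the enzyme, fell by 0.29. Of the remaining subunits ATP5MG fell by 0.69, ATP5MF by 0.57, ATP5PO by 0.40, ATP5PF by 0.37, ATP5PD by 0.34, ATP5F1C by 0.33 and ATP5MPL by 0.22. ATP5MD (-0.15, adjusted p = 0.0247) and ATP5PB, the b subunit of the peripheral stalk (-0.12, adjusted p = 0.0461), were the weakest calls, and without sh-ctrl replicate 3 they were -0.08 (adjusted p = 0.183) and -0.05 (adjusted p = 0.34). ATP5MD also lost its call without sh-KIF11 replicate 1 or 2 (adjusted p = 0.0889 and 0.0643), and ATP5PB without any library other than sh-ctrl replicate 1 (adjusted p 0.0581 or more).

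ATP5MC1, ATP5MC2 and ATP5MC3 encode the same mature c subunit with different import sequences. ATP5MC3 fell from 310, 310 and 332 CPM to 193, 187 and 176 CPM (-0.77 ± 0.05, adjusted p = 2.54e-17). ATP5MC1 fell by 0.76 and ATP5MC2 by 0.50. The log2 ratio of ATP5MC1 to ATP5MC2 differed by -0.27 between sh-KIF11 and sh-ctrl and that of ATP5MC2 to ATP5MC3 by 0.28, with no overlap between the libraries in either. Each had an exact two-sided permutation p of 0.1, the smallest that 3 against 3 libraries allow, and 0.15 after adjustment over the 3 pairs. The ratio of ATP5MC1 to ATP5MC3 differed by 0.01 (exact permutation p = 0.9). The balance of the 3 genes could not pass a threshold of 0.05 in this design.

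Few members went against the group. NDUFA5, an accessory subunit of the peripheral arm of complex I at chr7:123536997-123558255 (GENCODE 29, GRCh38), rose from 34.7, 34.2 and 35.3 CPM to 47.0, 51.0 and 53.7 CPM, a ratio of 1.45 (0.54 ± 0.07, adjusted p = 9.21e-09). All knockdown libraries were above all controls, and the FPKM ratio was 1.61. NDUFA5 has 12 named pseudogenes, so that some reads could belong to copies, and its transcript has 35.0% GC, the lowest of the tested members. Members that fell have named pseudogenes as well, such as COX6C with 17 and NDUFB4 with 12. UQCRB, a small subunit of complex III near the ubiquinone site, was 105, 121 and 119 CPM in sh-ctrl and 127, 133 and 130 CPM in sh-KIF11 (0.18 ± 0.05, adjusted p = 0.00394). The knockdown libraries lay above the controls by a small gap, and without sh-ctrl replicate 1 the value was 0.12 (adjusted p = 0.0593). With an offset for GC content NDUFA5 was 0.20 (adjusted p = 0.00672) and UQCRB was -0.08 (adjusted p = 0.086). ATP5S, named after the ATP synthase but not counted among its subunits, was 8.19 ± 0.84 CPM in sh-ctrl and 9.33 ± 0.67 CPM in sh-KIF11 (SD, n = 3) and was not called (0.19, adjusted p = 0.173). In FPKM, with limma on log2(FPKM + 0.1), ATP5S was called higher (0.43, adjusted p = 0.0271) and UQCRB was 0.47 (adjusted p = 0.000686).

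NDUFC2, of the membrane arm of complex I, rose in the counts but not in FPKM. The control libraries gave 255, 265 and 285 counts against 365, 362 and 461 after knockdown, or 14.3, 14.7 and 16.9 against 18.2, 17.5 and 23.4 CPM (0.36 ± 0.10, adjusted p = 0.00152). Library 3 of sh-KIF11 was the highest, and without it the value was 0.22 (adjusted p = 0.0614). In FPKM it was 82.7, 85.5 and 92.1 in the controls against 80.3, 79.5 and 85.0 after knockdown, a ratio of 0.940 with overlapping libraries. Its exons are shared on the same strand with the readthrough gene NDUFC2-KCTD14, which had 0 counts in every library but 11.2 to 15.8 FPKM. For NDUFC2 the log2 change was 0.45 smaller in FPKM than in counts, whereas over all tested genes it was larger in FPKM by a median of 0.16. The direction of NDUFC2 is therefore not settled by these tables. ATP5MF shares exons in the same way with ATP5MF-PTCD1, and it was lower in counts (-0.57).

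**Figure D4:**
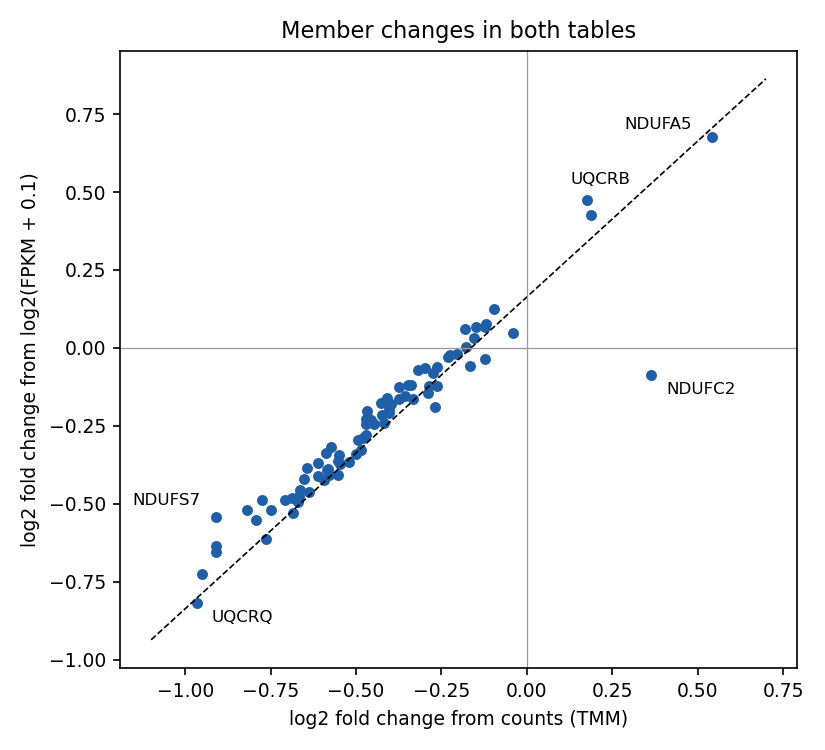
Log2 fold change in sh-KIF11 against sh-ctrl of the 82 tested members from the counts (x axis, TMM scaling) and from log2(FPKM + 0.1) (y axis). The dashed line is offset by the median difference of 0.16 between the tables over all tested genes. The members follow the line apart from NDUFC2, at 0.36 and -0.09.

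The size of the fall depended on scaling and on transcript length. TMM factors were 0.922 to 0.926 in sh-ctrl and 1.08 to 1.09 in sh-KIF11. With library totals alone the median of all tested genes was 0.23 and that of the members was -0.23, so their distance of -0.47 was unchanged, while 54 members were lower and 6 higher and the split over all tested genes moved to 19.2% lower and 53.5% higher. In FPKM 58 members were lower and 3 higher, and with a pseudocount of 1 21.0% of all tested genes were lower and 45.6% higher. With a pseudocount of 0.1 the higher members were NDUFA5, UQCRB and ATP5S, and NDUFC2 was not among them. Shorter transcripts had lower values over the whole table. By quartile of annotated length (the longest GENCODE 29 transcript) the median of all tested genes was -0.23, -0.04, 0.08 and 0.18, and 56 of the 82 members were in the shortest quartile, where their median was -0.48. With an offset for annotated length 57 members were lower and 6 higher (median -0.23), against 34.5% and 32.5% of all tested genes. With an offset for the length implied by count and FPKM 47 were lower and 6 higher (median -0.19), against 34.3% and 33.7%. GC content also moved with the change, as the medians of all tested genes by GC quartile were 0.23, 0.05, -0.11 and -0.19 and those of the members were -0.35, -0.35, -0.55 and -0.64. With an offset for GC content 76 members were lower and 2 higher, against 35.3% and 32.6% of all tested genes. RNA quality values were not analysed here, and the part of length and GC in the fall was not tested beyond these fits.

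**Figure D5:**
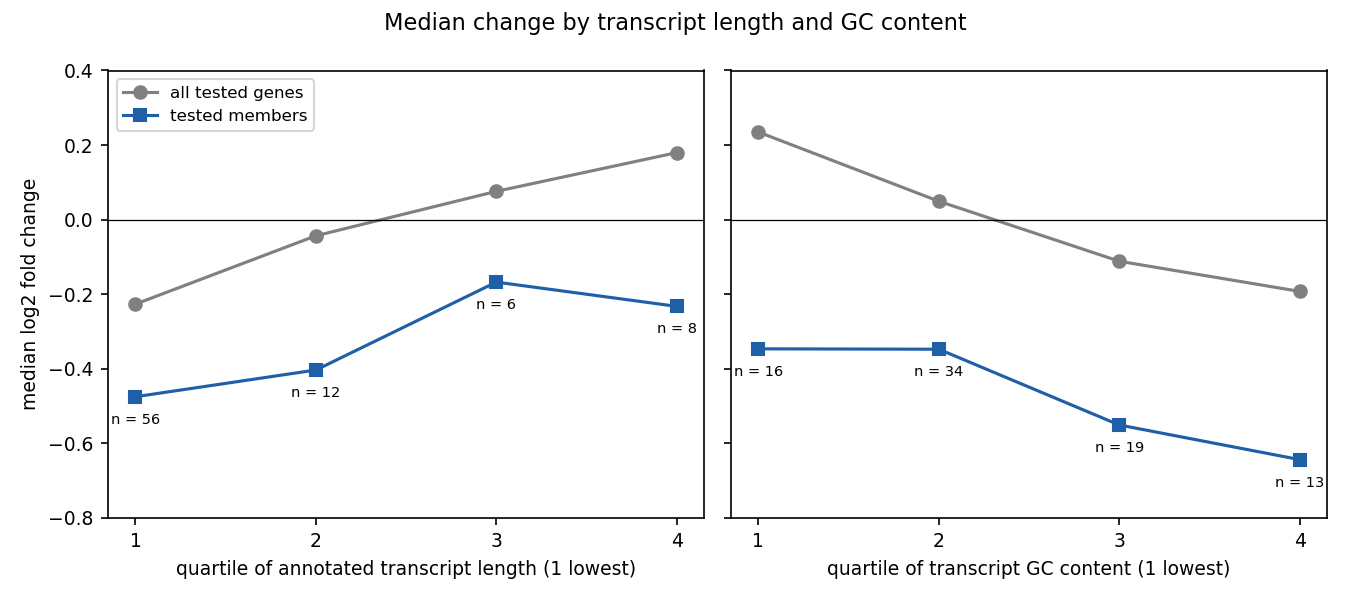
Median log2 fold change in sh-KIF11 against sh-ctrl (y axis) by quartile of annotated transcript length (left) and of transcript GC content (right), with all tested genes in grey and tested members in blue, and the number of members beside each point. In each quartile the members lie below all tested genes, at -0.48 against -0.23 among the shortest transcripts.

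Genes that build or serve the chain were counted beside the subunits, from lists of the pathway, and each count stands beside the 34.7% of all tested genes that were lower and the 34.4% that were higher. Among the assembly factors, for complex I 8 of 16 fell and 1 rose (median -0.17), for complex IV 15 of 25 fell and 2 rose (-0.34), for complex III 4 of 6 fell and 1 rose (-0.38), and for complex II 2 of 4 fell (-0.13). ECSIT, of the complex I assembly machinery, fell by 0.84, UQCC3, which guards newly made cytochrome b, fell by 0.95, and SDHAF1, which helps to insert iron-sulfur clusters into SDHB, fell by 0.85. TMEM126B (0.19), TTC19 (0.29), HIGD1A (0.24) and COA1 (0.17) rose. Of the mobile carriers and coenzyme Q enzymes 9 of 15 fell (median -0.20). ETFB, a subunit of the flavoprotein that brings electrons from fatty acid oxidation, fell from 427 ± 9.90 to 196 ± 4.80 CPM (SD, n = 3, log2 fold change -1.12), and CYCS, cytochrome c itself, was not called (-0.06, adjusted p = 0.299). In the citrate cycle 8 of 13 genes fell and 1 rose (median -0.25), and in the import machinery 14 of 23 fell and 2 rose (-0.30). Of the genes for mitochondrial DNA upkeep and transcription 3 of 10 fell and 1 rose (-0.12), which is no larger a share lower than over all tested genes. Of the genes for ATP synthase assembly and regulation 2 of 3 fell, and 1 of them, ATP5IF1, is itself a member.

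The transcriptional regulators of mitochondrial biogenesis moved in both directions, with 4 of 9 tested lower and 3 higher (median -0.04), shares near those of all tested genes (34.7% and 34.4%). PPARGC1A, a coactivator of this programme, was 24.7, 25.6 and 26.6 CPM in sh-ctrl and 11.2, 11.3 and 10.7 CPM in sh-KIF11 (-1.21 ± 0.09, adjusted p = 1.48e-15). ESRRA, a nuclear receptor that it activates, fell from 61.5 ± 5.37 to 43.0 ± 0.105 CPM (SD, n = 3, -0.52), and NRF1 fell by 0.40. GABPA, the DNA-binding part of the ETS factor, rose from 18.4, 22.8 and 22.8 CPM to 33.6, 31.5 and 31.5 CPM (0.59 ± 0.08, adjusted p = 3.96e-08), and its partner GABPB1 fell by 0.24. TFAM, which packages and transcribes mitochondrial DNA, rose slightly (0.17, adjusted p = 0.00574), and YY1 was not called (-0.04, adjusted p = 0.497). The third higher gene, PPARGC1B, was near the low end, at 1.46 ± 0.815 CPM in sh-ctrl and 2.35 ± 0.152 CPM in sh-KIF11 (SD, n = 3). Its libraries overlapped (0.67, adjusted p = 0.0327). GABPA and ATP5PF lie head to head and share exon bases on opposite strands, and whether the counting used strand is not given in the sources used here.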

How the data were processed

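Poly(A) RNA of HepG2 cells was sequenced in 3 sh-ctrl and 3 sh-KIF11 libraries. The authors deposited raw counts per gene and a second table of FPKM values, which corrects each gene for its length and for sequencing depth. The submitters' processing notes name Trimmomatic, HISAT2 2.1.0, Cufflinks 2.2.1, HTSeq 0.9.1 and the GRCh38 build; the strand setting of the counting is not given in the sources used here. The knockdown columns, named only shRNA in the tables, were read as sh-KIF11, the only hairpin other than the control in the labels.

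Counts were tested with edgeR 4.0.16 (R 4.3.3) by the quasi-likelihood test with TMM factors on the 12369 genes kept by filterByExpr, with the group as the only term, and p-values were two-sided and adjusted by Benjamini-Hochberg over all tested genes (threshold 0.05). Fold changes are given on the log2 scale with their standard errors, and CPM values carry TMM scaling. Totals of 18167773 to 19583282 counts set the precision. The 9 untested members had 0 to 5 counts in each library. Isoform ratios (log2 of TMM-scaled CPM, without a prior count) were compared by exact permutation. The procedure was also run on simulated counts with known changes. These held no trend with length or GC content, so that run cannot speak to such trends.

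The members and all lists (assembly factors, mobile carriers, biogenesis regulators, mitochondrial DNA and transcription, citrate cycle, import, and hepatocyte, fibroblast, endothelial and blood cell markers) were chosen with earlier results of these data known. Of the marker lists, 1 of 5 fibroblast genes (PDGFRB, lower), 2 of 4 endothelial genes (VWF, higher, and PECAM1, not called) and 2 of 5 blood cell genes (LYZ and CD68, both lower) were tested. Their summed levels ran, in sh-ctrl and sh-KIF11, from 2.55 to 3.88 and 1.40 to 1.89 CPM for fibroblast, 3.16 to 3.55 and 4.68 to 4.98 CPM for endothelial, 2479 to 2975 and 505 to 636 CPM for blood cell (almost all LYZ) and 32075 to 33624 and 14297 to 15419 CPM for hepatocyte genes. Named with values are up to 3 genes of each complex in each direction (called, mean of at least 1 CPM, no overlap), the core subunits, isoform pairs and members that are no subunits, and up to 2 genes of each other list in each direction. Any further gene was picked with its values known. The result of 1 gene that meets this rule is not reported here.

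Alternatives were RLE and upper-quartile factors, library totals alone, leaving out the low-count filter, a minimum of 10 counts in all 6 libraries, DESeq2 1.42.0, limma 3.58.1 on log2(FPKM + 1) and log2(FPKM + 0.1), each library left out, the replicate number as a block, stricter thresholds and a transcript length offset. Offsets for GC content and for annotated length were added after seeing the data.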

Additional observations from a re-analysis of the deposited data

How the results depend on the processing

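The 74 lower and 3 higher members were recounted under each alternative. Leaving out each library in turn gave 71 to 74 lower and 2 to 3 higher members, against 31.9% to 34.3% and 31.7% to 35.2% of all tested genes. The replicate number as a block gave 74 and 3, against 34.9% and 34.7%. Same-numbered libraries did not deviate together (correlations 0.030, -0.018 and -0.0025), so the numbers were not taken as pairs, and the replicate block changed no call of a member. Higher members were 6 with library totals alone, 6 with the length offset, 6 with the annotated length offset and 0 at a minimum of 1.5-fold. Lower members were 47 with the length offset and 24 at a minimum of 1.5-fold. All member medians of the complexes stayed below 0. With upper-quartile factors they were -0.39, -0.29, -0.44, -0.38 and -0.32 for complexes I, II, III, IV and the ATP synthase, with library totals as the only scaling -0.24, -0.13, -0.29, -0.23 and -0.17, with limma on log2(FPKM + 1) -0.23, -0.18, -0.35, -0.23 and -0.18, with log2(FPKM + 0.1) -0.24, -0.18, -0.35, -0.23 and -0.18, and with the length offset -0.19, -0.15, -0.25, -0.16 and -0.19. With the annotated length offset complexes I, III, IV and the ATP synthase were at -0.22, -0.40, -0.27 and -0.21. With the GC offset complex I was at -0.42 and complex IV at -0.57, and with at least 10 counts in every library complex I was at -0.44. Leaving out each library gave -0.49 to -0.44 for complex I, -0.40 to -0.32 for complex II, -0.55 to -0.47 for complex III, -0.48 to -0.39 for complex IV and -0.46 to -0.36 for the ATP synthase. The log2 ratio of ATP5MC1 to ATP5MC3 differed by -0.12 between sh-KIF11 and sh-ctrl in FPKM.

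Values below 0 numbered 78 of 82 members in the counts, 71 in FPKM, 66 with library totals alone and 61 with the length offset. Among the genes named by rule, the direction changed in 13 cases. NDUFC2 was -0.087 in FPKM with a pseudocount of 1 and -0.088 with 0.1. With library totals alone NDUFS1 was 0.027 and SDHD 0.064. With the length offset UQCRB was -0.067, SDHD 0.12, COX6A1 0.011 and COX7B 0.21, with the annotated length offset NDUFV2 was 0.064, SDHD 0.065 and ATP5S -0.051, and with the GC offset UQCRB was -0.085 and ATP5S -0.018. The cause was not tested. When single libraries were left out, calls were lost for ATP5MD, ATP5PB, NDUFA10, SDHD, NDUFC2 and UQCRB, and NDUFB5 gained one without sh-ctrl replicate 1. Depth limits what can be shown for members with fewer counts, such as ATP5S with 127 to 206 counts in each library.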
